A study of Mus musculus with 61 samples.

Results

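Nicotinamide-treated DBA/2J mice were compared with D2-Gpnmb+ mice at 9 months of age by RNA sequencing of sorted retinal cells. The nicotinamide group was DBA/2J given nicotinamide at 500 mg per kg per day, with 7 libraries. The control group was D2-Gpnmb+ on water, with 9 libraries. These 16 libraries were all those labelled for either group among 61 in the series. The comparison was repeated with control libraries 13, 14 and 15 alone, which stand beside the nicotinamide libraries in the deposited table. DBA/2J libraries 26, 27 and 28, on water at 9 months, stand there too and are given side by side. Strain and treatment changed together, so an effect of the Gpnmb allele and one of nicotinamide cannot be told apart in these groups. All eyes were chosen for having no axon loss. The sort kept cells positive for Thy1.2, after removal of those with Cd11b, Cd11c, Cd34, Cd45.2 or GFAP, and the samples are labelled as retinal ganglion cells. Whether each library came from its own animal is not given in the sources used here, and the p-values measure only the spread from library to library.

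Retinal ganglion cells are the output neurons of the retina, and their axons form the optic nerve. DBA/2J mice develop iris disease, raised eye pressure and glaucoma with age, to which mutations of Gpnmb and Tyrp1 contribute. D2-Gpnmb+ mice have the same background but a functional Gpnmb, and they do not develop the high pressure or the glaucoma. Nicotinamide is a form of vitamin B3. The enzyme Nampt turns it into nicotinamide mononucleotide, and the Nmnat enzymes turn that into NAD, the electron carrier of glycolysis and respiration.

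The 16 libraries held between 7284988 and 14961078 recovered reads, and the 7 nicotinamide libraries between 9136453 and 12218457. Values are the authors' normalised read counts, which are not divided by gene length. The columns fall into 3 stretches. All nicotinamide libraries and control libraries 13, 14 and 15 lie in the third, control libraries 1, 4, 5 and 6 in the first, and 8 and 9 in the second. What the stretches stand for is not given in the sources used here. Some control libraries stood apart. Library 8 had 7.93 normalised counts of Xist, the RNA of the inactive X chromosome, against 4875 to 18257 in the other 8 controls and 6262 to 7434 with nicotinamide. Mitochondrial ribosomal RNA and Rn45s, a ribosomal RNA precursor, made up 44.4% of the reads of control library 13, 31.6% of library 14 and 25.1% of library 15. With nicotinamide they made up 25.1% to 30.4%.

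Marker genes of other retinal cell types had reads in every library. The 17 rod markers summed to between 9069 and 20571 normalised counts with nicotinamide and to between 7066 and 7837 in control libraries 13, 14 and 15. In control libraries 1, 4, 5 and 6 the same genes summed to between 1005 and 8365, and in libraries 8 and 9 to 12208 and 33575. The 16 measured Müller glia and astrocyte markers summed to between 1401 and 2723 with nicotinamide and to between 1565 and 3004 in controls 13, 14 and 15. In controls 1, 4, 5 and 6 they summed to between 11310 and 16169, above all other libraries of both groups. The 11 endothelial markers were also highest in those 4 controls, with 486 to 639, against 53.7 to 93.7 in controls 13, 14 and 15 and 40.8 to 110 with nicotinamide. Microglia and macrophage markers were near 0: the 16 genes together summed to at most 10.5 with nicotinamide and 26.6 in the controls, and C1qa, Tmem119 and Trem2 had no read in any nicotinamide library. The 20 measured ganglion cell markers summed to between 154 and 476 with nicotinamide and to between 167 and 222 in controls 13, 14 and 15. Among them, Slc17a6, the vesicular glutamate transporter of ganglion cells, ranged from 0 to 3.35 with nicotinamide, and Pou4f1, a ganglion cell transcription factor, from 0 to 1.73. The part of these other cell types in the results that follow was not tested. Fewer cells of a type and less RNA per cell cannot be told apart in bulk samples.

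**Figure D1:**
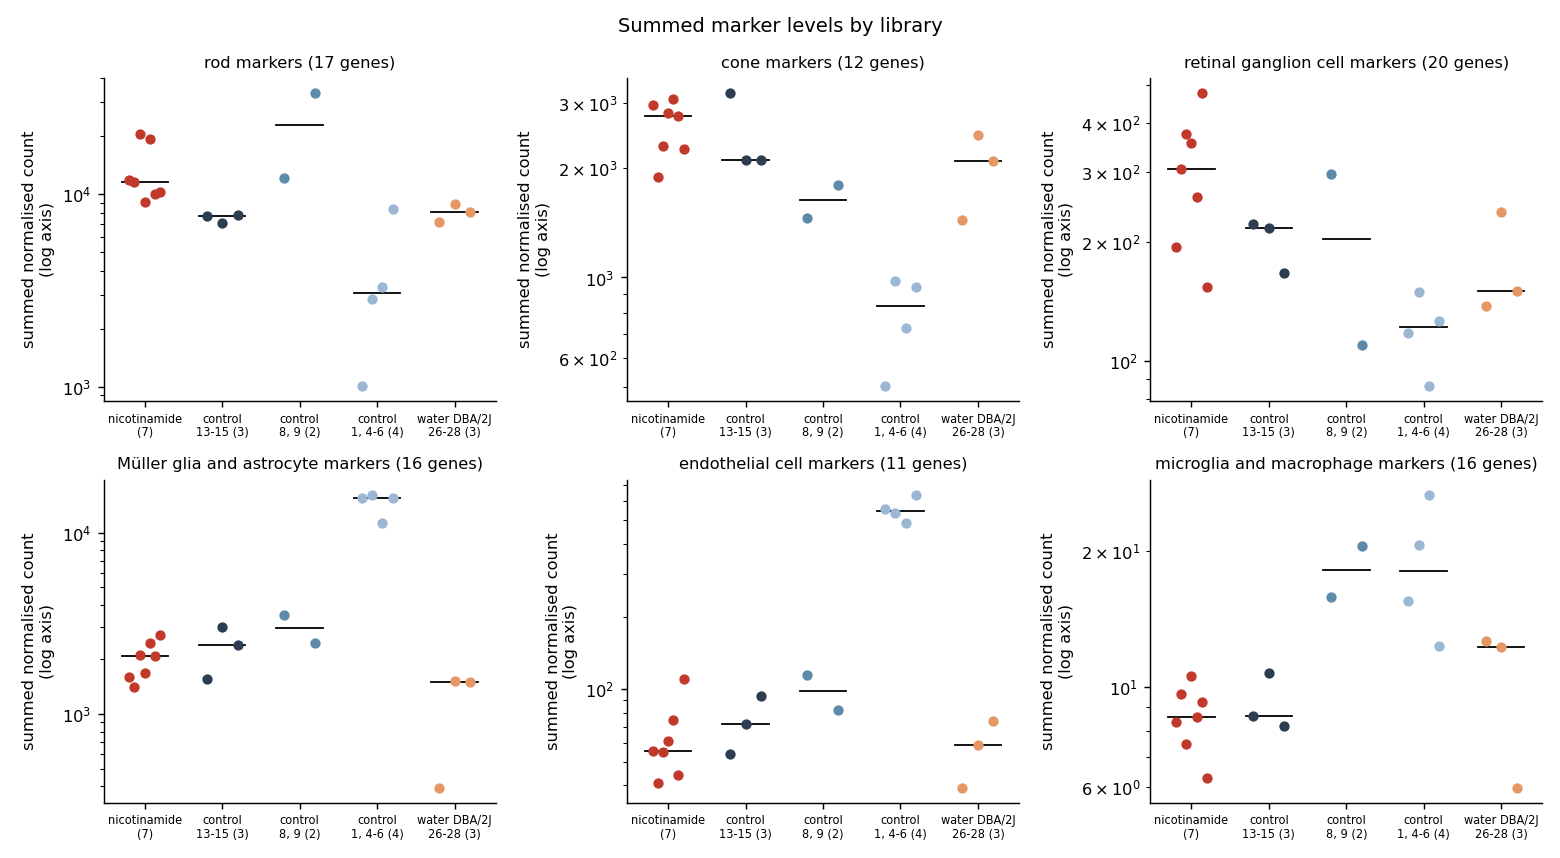
Summed normalised counts of marker lists (log axis) in each library of the nicotinamide group, of the D2-Gpnmb+ controls by stretch and of the 3 water DBA/2J libraries; points are libraries and bars are medians. Control libraries 1, 4, 5 and 6 lie at 11310 or above for Müller glia and astrocyte markers, and all nicotinamide libraries at 2723 or below.

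Gpnmb, a transmembrane glycoprotein made in pigment cells, was examined first as a check of the strain labels. It lies on chromosome 6 at 49036518 to 49058182 (GRCm38), and the DBA/2J allele has a premature stop codon. The 7 nicotinamide libraries had 7.46, 8.12, 10.6, 11.6, 13.1, 15.3 and 16.2 normalised counts. Control libraries 13, 14 and 15 had 65.4, 77.9 and 80.8. All 7 nicotinamide libraries were below these 3 controls, with a log2 fold change of -2.60 ± 0.20 (SE) and an adjusted p of 6.00e-06 (limma). Of the other 6 controls, library 1 had 11.9, inside the nicotinamide range, and the rest had 38.9 to 83.5. Water DBA/2J libraries 26, 27 and 28 had 31.8, 18.6 and 26.5, between the nicotinamide and control libraries. In the fit of these 3 groups together, Gpnmb was also lower with nicotinamide than with water, by a log2 fold change of -1.07 (adjusted p = 0.0381, limma). Against all 9 controls its log2 fold change was -1.98 and its adjusted p 0.0594 (limma). All 25 water DBA/2J libraries at 9 months, from every stretch, had 8.39 to 78.3 of Gpnmb (median 26.5). That range reaches into those of both groups compared.

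Against all 9 control libraries, no gene of 13054 tested passed an adjusted p of 0.05 in limma, which is 0% called. The unadjusted p was under 0.05 for 3838 genes (29.4%), of which 1960 were higher (15%) and 1878 lower (14.4%), and 50.9% of genes had a fold change above 0. The smallest adjusted p, 0.0594, was shared by 36 genes. On the recovered reads, edgeR called 1067 genes (8.17%), 167 higher (1.28%) and 900 lower (6.89%), and DESeq2 called 2083, 444 higher and 1639 lower. Single libraries moved the limma count. Without control library 13 it was 1537, without 15 it was 365 and without 9 it was 184, and without library 8 it came to 319 higher and 159 lower. Without nicotinamide library 8 it was 6, without control library 1 it was 1, and without any single one of the rest it was 0. When only the 6 controls outside the third stretch were used, 4480 genes were called, 2237 higher and 2243 lower. In that fit stretch, strain and treatment cannot be told apart. With the stretch as a covariate, Gpnmb was the 1 gene called, with an adjusted p of 0.00595 (limma). All nicotinamide libraries lie in the third stretch, so fold changes in that fit rest on controls 13, 14 and 15. The other 6 controls add only to the estimate of spread. The log2 fold change of Gpnmb was -2.60 in that fit, as it was against the 3 controls alone.

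**Figure D2:**
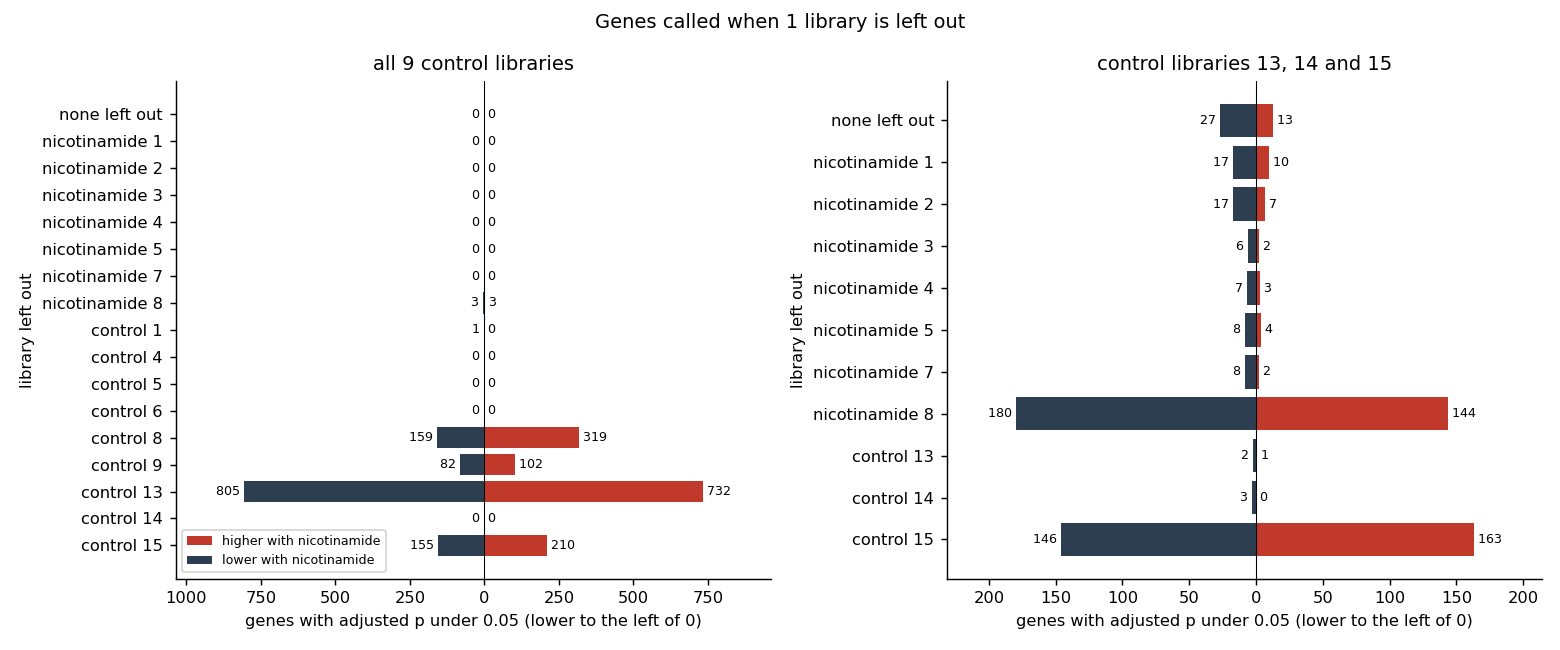
Number of genes with an adjusted p under 0.05 (limma) when 1 library was left out, in the comparisons with all 9 and with 3 controls, split by direction. With all 9 controls the count goes from 0 to 1537 when control library 13 is left out, and with 3 controls it runs from 3 to 324.

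The lists of cell type markers moved with the choice of controls. The median log2 fold change of the 16 Müller glia and astrocyte markers was -1.36 against all 9 controls. Of them 14 were lower at an unadjusted p under 0.05, where 14.4% of all genes were. Against controls 13, 14 and 15 the median was -0.14, and 1 of 16 was lower at such a p, where 8.31% of all genes were. The median of 11 pericyte and smooth muscle markers went from -1.30 to -0.44, and that of 10 endothelial markers from -1.09 to -0.30. Extracellular matrix and integrin genes had medians of -0.87 and -0.15. Glutamate, GABA and glycine receptor genes had a median of 0.74 over 29 genes against 9 controls and of 0.03 against 3. The 13 respiratory subunits encoded in mitochondrial DNA changed sign, from 1.05 to -0.83. Against 9 controls 0 of them had an unadjusted p under 0.05, and in edgeR their median there was 0.09, with 7 above 0 and 6 below. Without control library 15 the medians against 3 controls were 0.05 for Müller glia and astrocyte markers, -0.15 for pericyte and smooth muscle markers, -0.19 for endothelial markers and -0.16 for receptor genes. The median over all genes tested was 0.01 in both comparisons. With scaling to total reads, the medians against 3 controls of Müller glia and astrocyte markers, of matrix genes and of cytosolic ribosomal proteins, all below 0 on the deposited scale, turned to 0.11, 0.06 and 0.17, under the 0.23 of all genes.

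**Figure D3:**
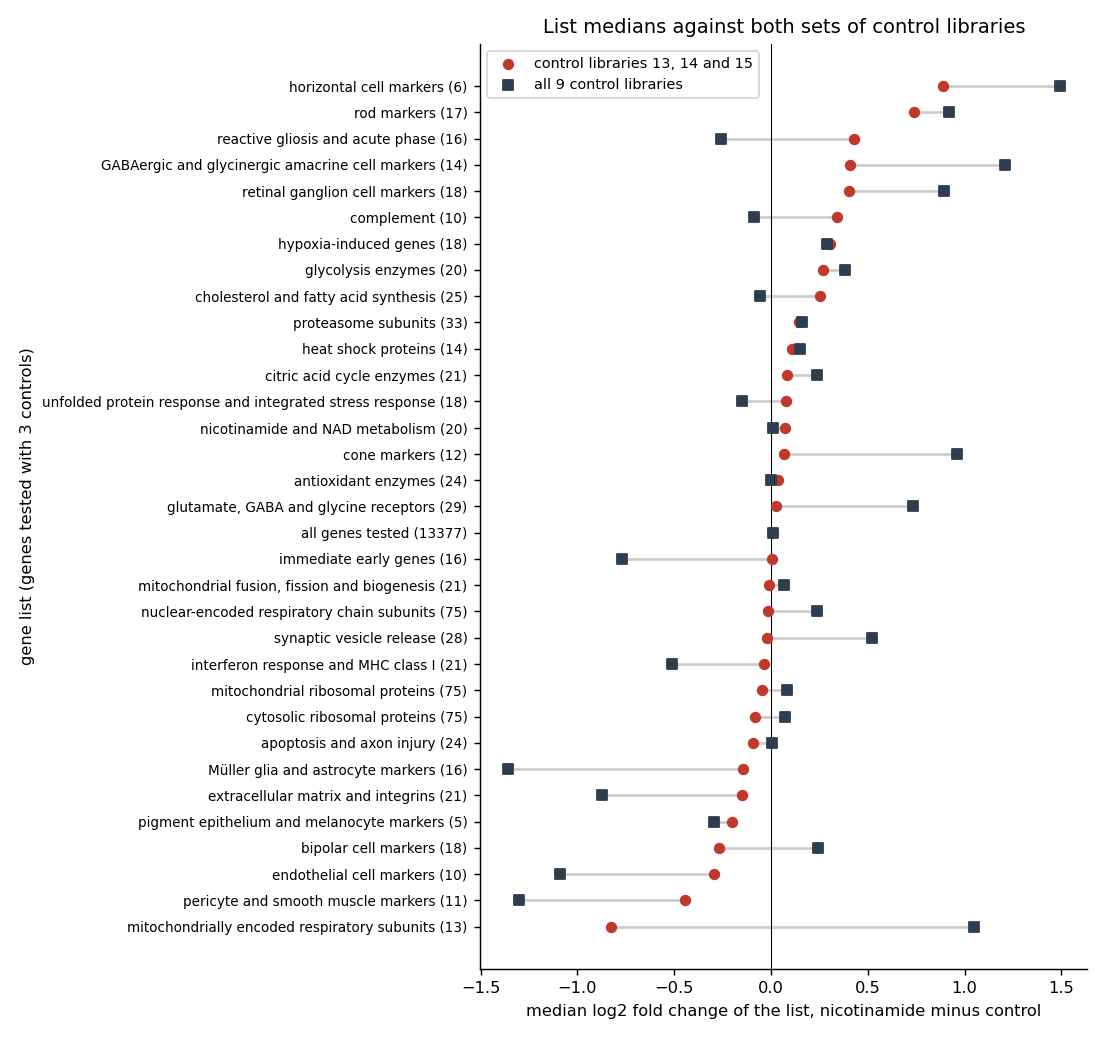
Median log2 fold change, nicotinamide minus control, of the gene lists, against control libraries 13, 14 and 15 and against all 9 controls. Lists of glia, vessel and matrix genes lie lower against all 9 controls, whereas the rod, hypoxia and glycolysis lists lie above 0 in both.

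Genes whose 7 nicotinamide libraries lay wholly outside all 9 controls were few. Among the 13054 genes, 40 were higher without overlap (0.306%) and 20 lower (0.153%), 0.46% in all. Among these 60 genes, 5 were also called against the 3 controls: Higd1a, Htatsf1, Myh10, Zhx2 and Elmod1. Higd1a, a small protein of the inner mitochondrial membrane that is induced by low oxygen, had 88.3 to 131 normalised counts with nicotinamide (median 109) and 16.9 to 71.9 in the 9 controls. Htatsf1, a splicing cofactor, had 163 to 179.7 with nicotinamide and 51.2 to 160.1 in the controls. Myh10, a non-muscle myosin heavy chain, had 73.3 to 103 with nicotinamide and 38.6 to 72.4 in the controls. These 3 genes were higher with nicotinamide, and Htatsf1 and Myh10 were also above the 3 water DBA/2J libraries without overlap. Zhx2, a zinc-finger and homeobox repressor, had 22.8 to 34.7 with nicotinamide and 37.5 to 64.6 in the controls. Elmod1, a GTPase-activating protein for Arf proteins, had 96.8 to 116 with nicotinamide and 116 to 176 in the controls, where library 9 was the lowest.

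Other genes of these 60 are named here after their values were seen. Acly, which makes the acetyl-CoA used for lipid synthesis, had 83.95 to 109 normalised counts with nicotinamide and 36.5 to 76.8 in the 9 controls. Hmgn2, a nucleosome-binding protein, had 96.5 to 123 and 38.1 to 88.4. Mpc1, a subunit of the mitochondrial pyruvate carrier, had 4.45 to 11.02 and 1.56 to 4.28. Vat1, a vesicle membrane protein, was on the lower side, with 6.42 to 8.69 against 9.85 to 44.1. None of the 4 passed the adjusted test against 9 or against 3 controls (adjusted p = 0.0922, 0.08, 0.0692 and 0.1201 against 3, limma). Of the 60 genes, 6 higher and 1 lower were also apart in the same direction from the 3 water DBA/2J libraries. Hmgn2 was among them, and Maml3, a Notch coactivator, was the lower one. The share of all genes apart from these water libraries is not given here. The 60 genes were also picked on the same nicotinamide libraries. These counts therefore cannot show whether such genes are more common among the 60 than elsewhere.

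Against control libraries 13, 14 and 15, 40 of 13377 genes passed the limma test (0.299%), 13 higher (0.0972%) and 27 lower (0.202%) with nicotinamide. The unadjusted p was under 0.05 for 2232 genes (16.7%), 8.38% higher and 8.31% lower, and 51.2% of genes had a fold change above 0. In all 40 the nicotinamide and control libraries did not overlap. Over all genes tested 785 (5.87%) were without overlap, 2.94% higher and 2.93% lower. Of the 40, 34 had the same sign against all 9 controls. These 9 include the 3 used for the calls, so the count cannot show how far other controls give the same sign. The edgeR test called 32 genes (0.239%), all among the 40, and DESeq2 called 420, 207 higher and 213 lower, including all 40. Single libraries moved the count: without control library 15 it was 309, without nicotinamide library 8 it was 324, and without control library 13 or 14 it was 3. Without nicotinamide library 1 or 2 it was 27 or 24, and without 3, 4, 5 or 7 it was 8, 10, 12 and 10. Gpnmb and Sh3bgrl passed in all 10 of these fits, 1700071K01Rik in 9, and Nab1, Vma21, Igsf21, Ppa1 and Smc4 in 8. When values were scaled to total reads instead, the median of all genes moved from 0.01 to 0.23, and the calls became 204 higher and 13 lower, with 23 of the 40 among them. No one of the 40 changed direction under that scaling, which uses the same libraries that gave the calls.

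Nefm, Stmn2 and Dcx were among the 13 genes higher against the 3 controls. Nefm, the medium neurofilament chain of large axons, had 3.25 to 6.297 normalised counts with nicotinamide (median 4.78) and 1.21, 1.49 and 1.02 in control libraries 13, 14 and 15. Its log2 fold change was 1.31 ± 0.22 (SE), with an adjusted p of 0.0215 (limma). Every nicotinamide library was above these 3 controls, as was so for the next pair of genes. Stmn2, a tubulin-binding protein of growing and injured axons, had 2.38 to 5.81 (median 4.85) against 1.21, 1.09 and 1.02, a log2 fold change of 1.26 ± 0.26 (SE) with an adjusted p of 0.0491 (limma). Dcx, a microtubule-associated protein of young neurons, had 4.55 to 12.7 (median 7.57) against 1.898, 2.03 and 2.81, a log2 fold change of 1.47 ± 0.25 (SE) with an adjusted p of 0.0215 (limma). Dcx lies on chromosome X at 143855842 to 143933396 and Nefm on chromosome 14 at 68119545 to 68125004. All 3 genes are low in this table, so fold changes on the log2(value + 1) scale understate the ratios. Among the other 6 controls, library 8 stood highest, with 4.16 for Nefm, 7.41 for Stmn2 and 9.09 for Dcx, inside the nicotinamide range or above it. Control libraries 4, 5 and 6 had no read of Dcx. With 1 library left out, Nefm passed in 5 of 10 fits, Stmn2 in 2 and Dcx in 6.

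Other ganglion cell genes did not pass. Nefh, the heavy neurofilament chain, had 4.87 to 13.5 normalised counts with nicotinamide and 3.62, 1.49 and 4.86 in controls 13, 14 and 15 (adjusted p = 0.0954, limma). Nefl, the light chain, had 8.58 to 24.5 against 12.8, 13.8 and 8.95, and the groups overlapped. Thy1, the surface protein used for the sort, had 16.8 to 84.1 against 16.7, 22.7 and 21.9, with an adjusted p of 0.376 (limma). Of 18 ganglion cell markers tested, 14 had a fold change above 0, where 51.2% of all genes did, with a median of 0.40. Nefm and Stmn2 were the 2 of the 18 called, where 0.0972% of all genes were called higher. The summed levels of the list overlapped between nicotinamide and control libraries. Leaving out 1 library put the list's median between 0.26 and 0.53. GABAergic and glycinergic amacrine cell markers also leaned up, with 11 of 14 above 0, a median of 0.41 and none called. Bipolar cell markers had a median of -0.27. The horizontal cell genes Calb1, a calcium-binding protein, and Onecut3, a transcription factor, missed the threshold. Calb1 had 4.33 to 24.4 with nicotinamide against 2.76, 2.71 and 2.81, and Onecut3 had 3.39 to 12.2 against 1.04, 1.36 and 2.81, with adjusted p-values of 0.0636 and 0.0751 (limma). Neither gene's nicotinamide libraries overlapped with the 3 controls, but control library 8 had 24.4 of Calb1.

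Adra2a, the alpha-2A adrenergic receptor, had the highest fold change of the 40 genes and a low level, and is named after its values were seen. It had 1.62 to 9.58 normalised counts with nicotinamide (median 4.01) and 0, 0.543 and 0.511 in the 3 controls, a log2 fold change of 1.86 ± 0.36 (SE) with an adjusted p of 0.0455 (limma). Water DBA/2J libraries had 0.388, 0.422 and 0.101, at the level of the 3 controls, and all 7 nicotinamide libraries were above both. Control library 8 had 3.703, inside the nicotinamide range.

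**Figure D4:**
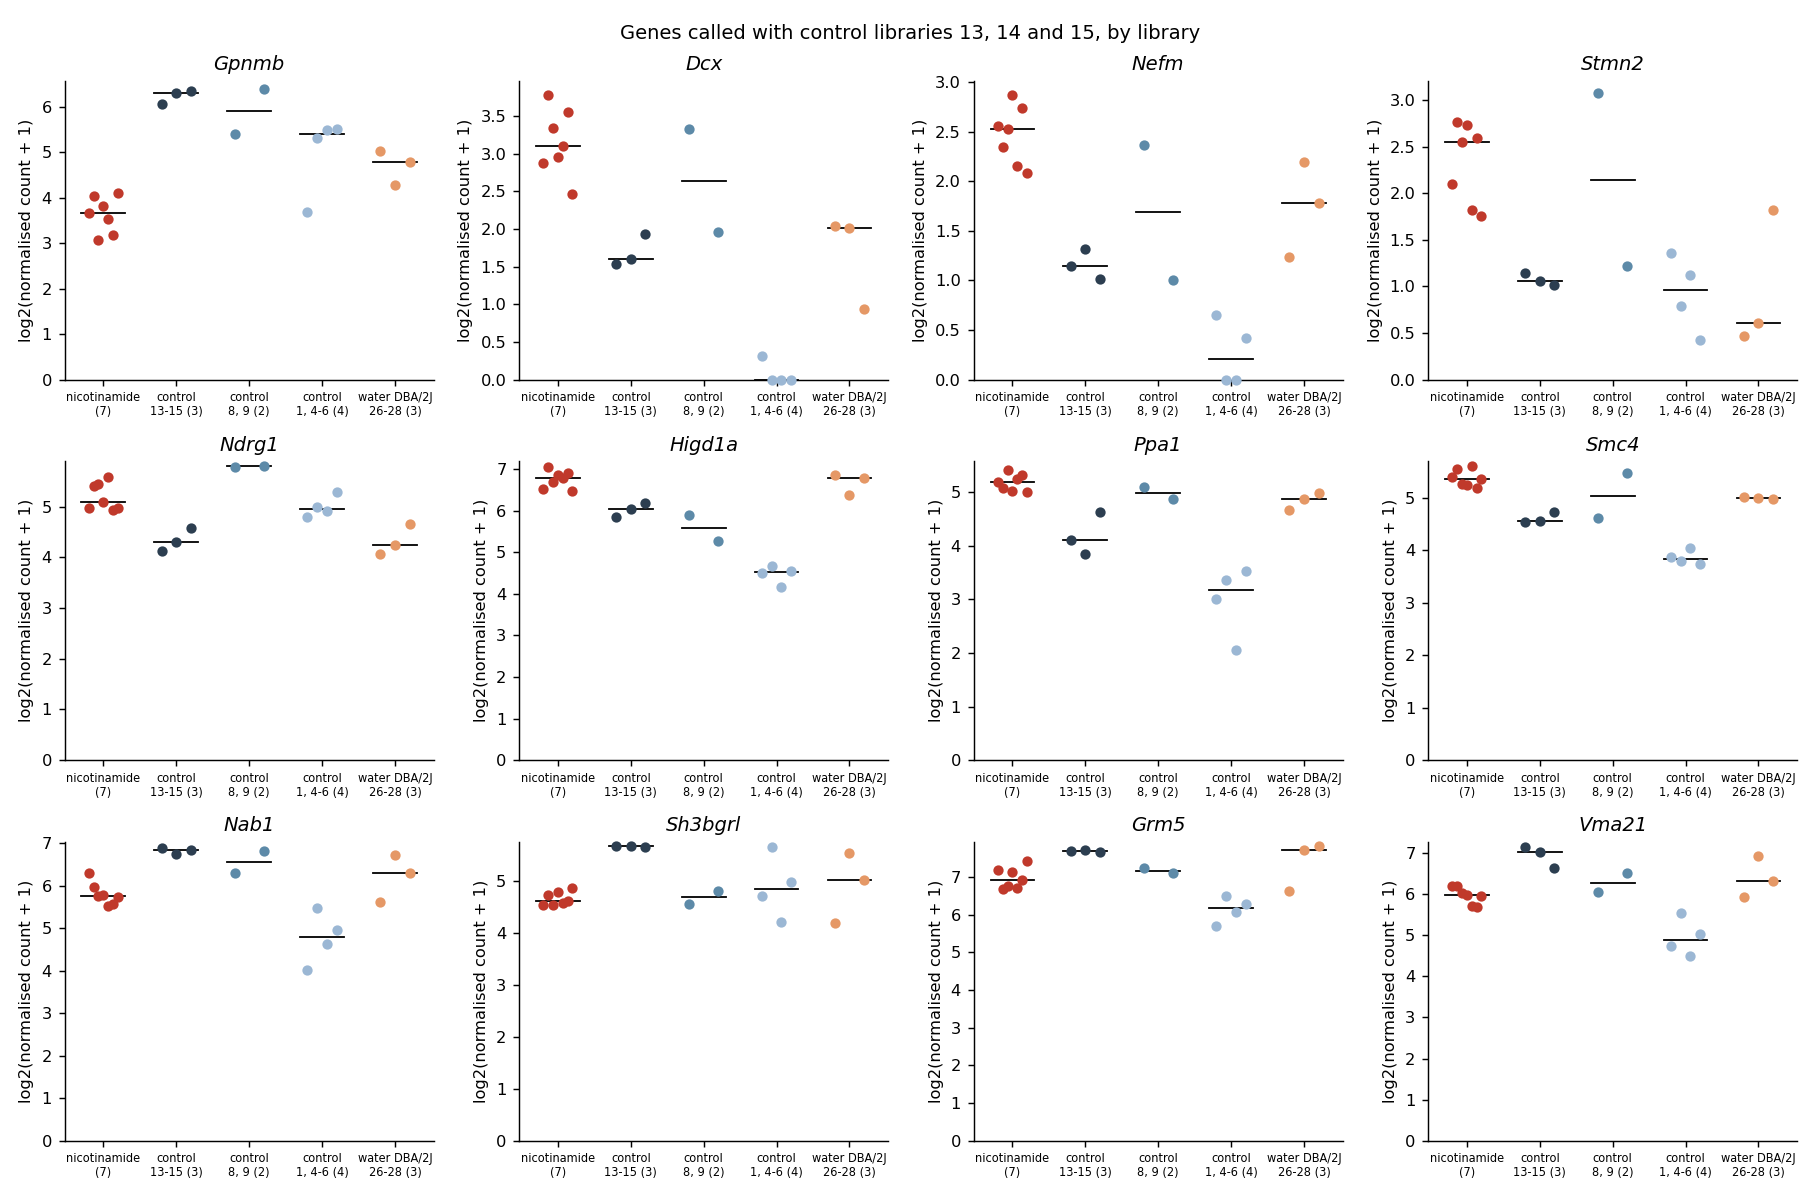
Values in each library of genes called against control libraries 13, 14 and 15, on the log2(value + 1) scale; points are libraries and bars are medians. In every panel the 7 nicotinamide libraries and controls 13, 14 and 15 do not overlap, while control library 8 lies in or above the nicotinamide range for Nefm, Stmn2 and Dcx.

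Hypoxia-induced genes, which the factor Hif1a switches on when oxygen is low, were mostly higher in level than in the 3 controls. Of 18 tested, 15 had a fold change above 0 and 8 had an unadjusted p under 0.05, all higher, where 8.38% of all genes had such a p. The median was 0.30 against 3 controls and 0.29 against all 9. Ndrg1 and Higd1a passed the adjusted test, where 0.0972% of all genes were called higher. Ndrg1, a protein induced by stress, had 29.6 to 46.98 normalised counts with nicotinamide (median 33.2) and 16.6, 18.9 and 22.9 in the 3 controls. Its log2 fold change was 0.86 ± 0.16 (SE) with an adjusted p of 0.0422 (limma), and every nicotinamide library was above these controls. The other 6 controls had 26.7 to 54.9, which takes in the nicotinamide range, and the log2 fold change against all 9 was 0.25 (adjusted p = 0.469, limma). Higd1a had 57.1, 64.8 and 71.9 in the 3 controls, and its log2 fold change was 0.73 ± 0.13 (SE) with an adjusted p of 0.0234 (limma). The gene for Hif1a itself had 453 to 808 with nicotinamide against 457, 462 and 449.6 (unadjusted p = 0.238, limma), and Vegfa, the vessel growth factor, had 113 to 151 against 138, 148 and 129.5. Both overlapped.

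Enzymes of glycolysis, the pathway from glucose to pyruvate and lactate, leaned the same way without any gene passing. Of 20 tested, 19 had a fold change above 0 and 11 an unadjusted p under 0.05, all higher, where 51.2% of all genes were above 0 and 8.38% were higher at such a p. With scaling to total reads 3 of the 20 passed, where 204 of 13365 genes were called higher. The median was 0.27 and stayed between 0.20 and 0.33 with 1 library left out. Ldha, which makes lactate from pyruvate, had 281 to 425 normalised counts with nicotinamide (median 359) and 242, 242 and 257 in the 3 controls. Pgk1, an ATP-yielding enzyme of the pathway, had 217 to 296 (median 239) against 129, 137 and 217. Hk2, a hexokinase, had 93.1 to 172 (median 98.5) against 76.9, 68.2 and 51.4. All nicotinamide libraries were above the 3 controls in these genes, by a narrow gap in Pgk1, where library 15 was close. The adjusted p-values were 0.0662, 0.0662 and 0.08 (limma). Gapdh, the enzyme before Pgk1 in the pathway, had 1365 to 1855 against 1462, 1530.5 and 1875 and overlapped. Reads of Ldha, Pgk1 and Gapdh are uncertain, since these genes have processed copies.

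The upstream windows of Pgk1, Hk2 and Ldha are shown because these 3 genes stand in both the hypoxia and the glycolysis lists and leaned the same way. Each is the 250 bases before an annotated start, in the gene's direction, from RefSeq (GRCm38.p6). Pgk1 is at chrX:106186850-106187099 on the plus strand, Hk2 at chr6:82774455-82774704 on the minus strand, and Ldha at chr7:46845554-46845803 on the plus strand, the first of its windows. Capitals mark ACGTG or GCGTG, the core letters of the hypoxia response element, on either strand, with overlapping matches joined as 1 site.
Pgk1: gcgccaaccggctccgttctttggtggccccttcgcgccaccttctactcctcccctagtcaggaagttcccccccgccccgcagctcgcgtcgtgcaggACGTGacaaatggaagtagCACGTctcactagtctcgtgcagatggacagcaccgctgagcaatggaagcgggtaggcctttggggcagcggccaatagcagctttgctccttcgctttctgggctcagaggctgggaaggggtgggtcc
Hk2: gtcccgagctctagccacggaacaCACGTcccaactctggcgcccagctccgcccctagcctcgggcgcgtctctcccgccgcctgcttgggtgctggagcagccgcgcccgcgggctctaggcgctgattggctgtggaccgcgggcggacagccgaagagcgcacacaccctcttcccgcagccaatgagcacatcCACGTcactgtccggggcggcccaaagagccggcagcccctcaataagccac
Ldha: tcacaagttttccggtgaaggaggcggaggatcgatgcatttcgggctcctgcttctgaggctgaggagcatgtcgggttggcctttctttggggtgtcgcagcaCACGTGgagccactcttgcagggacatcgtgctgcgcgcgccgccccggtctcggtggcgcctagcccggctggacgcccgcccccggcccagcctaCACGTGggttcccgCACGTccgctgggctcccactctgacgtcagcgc
Pgk1 and Hk2 held 2 such sites each, and this Ldha window held 3. Of 32851 RefSeq windows of this length, 38.6% held at least 1, so a match is common. Among the genes tested that have a window, 60.9% had a match in at least 1 window, as did 16 of 16 hypoxia genes and 16 of 19 glycolysis genes with a window. A match is a run of letters and says nothing about binding in these cells.

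Ppa1, the cytosolic pyrophosphatase, was another called metabolic gene. It had 31.1 to 41.3 normalised counts with nicotinamide (median 35.3) and 16.2, 13.4 and 23.8 in the 3 controls. The log2 fold change was 0.98 ± 0.15 (SE) and the adjusted p 0.0157 (limma). All nicotinamide libraries were above the 3 controls. Control libraries 1, 4, 5 and 6 had 3.15 to 10.5, and libraries 8 and 9 had 33.3 and 28.3, so of the 9 controls library 8 alone reached the nicotinamide range.

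Smc4, a condensin subunit that compacts chromosomes, had 35.4 to 47.4 normalised counts with nicotinamide (median 39.9) against 22.1, 22.7 and 25.4, a log2 fold change of 0.76 ± 0.12 (SE) with an adjusted p of 0.0157 (limma). Control library 9 had 43.2, inside the nicotinamide range. Tbc1d30, a GTPase-activating protein for Rab proteins, had 18.3 to 35 against 14.8, 13.97 and 13.4. Klhl2, an adaptor of a cullin ubiquitin ligase, had 10.3 to 15 against 7.07, 7.46 and 6.14. Tax1bp1, an autophagy receptor, had 256 to 327 against 173, 180 and 236. These last 3 genes did not overlap with the 3 controls, and their log2 fold changes were 0.89, 0.83 and 0.57 (adjusted p = 0.0482, 0.04497 and 0.0487, limma). Htatsf1 and Myh10, given above, had log2 fold changes of 0.62 and 0.70 (adjusted p = 0.0455 and 0.0437, limma).

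On the lower side, Nab1 and Nab2 both passed. They are the co-repressors that bind Egr transcription factors. Nab1 had 45.3 to 78.1 normalised counts with nicotinamide (median 53.1) and 118, 108 and 114 in the 3 controls. Its log2 fold change was -1.02 ± 0.14 (SE), with an adjusted p of 0.00403 (limma). Nab2 had 7.76 to 13.2 (median 10.1) against 19.3, 17.8 and 23.4, a log2 fold change of -0.94 ± 0.18 (SE) with an adjusted p of 0.0422 (limma). No nicotinamide library reached the 3 controls in either gene. The other 6 controls did overlap, with 15.3 to 113 for Nab1 and 6.496 to 16.2 for Nab2, and the log2 fold changes against all 9 controls were -0.05 and -0.42. The window of Nab1 holds 2 copies of GCGTGGGCG, the letters of the Egr site, counted on both strands. Of the 32851 windows, 0.536% hold a copy, and the window of Nab2 holds none. The Nab1 copies begin 141 and 109 bases before the RefSeq start that this window belongs to, inside the outer bounds of the gene, which lies on the minus strand of chromosome 1 at 52455849 to 52500712. They are at chr1:52500575-52500595 and chr1:52500543-52500563 (GRCm38.p6). They are shown in the gene's direction, with the motif in capitals, because few windows hold it. The far copy reads as the reverse complement of the motif, so the copies lie on opposite strands.
Nab1 far site: cgcggcCGCCCACGCcgggat
Nab1 near site: ggccgcGCGTGGGCGggagcc
Immediate early genes, which cells switch on within minutes of stimulation, had a median of 0.00 over 16 tested genes, with 8 above 0. Their median against all 9 controls was -0.77, with 13 of 15 below 0 and 7 lower at an unadjusted p under 0.05, where 14.4% of all genes were. Dusp1, a phosphatase of MAP kinases, had 17.2 to 36.4 with nicotinamide against 43.3, 46.3 and 49.5 (adjusted p = 0.0751, limma). Npas4, a factor induced by neuronal activity, had 0.896 to 3.71 against 8.97, 3.53 and 3.07 and overlapped. Egr1, an Egr transcription factor, had 21.1 to 52.7 against 43.3, 37.8 and 22.1 and overlapped. Its log2 fold change was -0.03 (unadjusted p = 0.901, limma). Of the 16 immediate early genes, 1 was higher and 3 lower at an unadjusted p under 0.05 against the 3 controls. Among all genes these shares were 8.38% and 8.31%.

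Grm5, Shank1 and Shank2 were among the 27 lower calls. Grm5, the metabotropic glutamate receptor 5, had 101 to 170.3 normalised counts with nicotinamide (median 121) and 206, 212 and 203 in the 3 controls, a log2 fold change of -0.73 ± 0.14 (SE) with an adjusted p of 0.0475 (limma). Shank1, a scaffold protein under glutamate receptors, had 165 to 215 against 308, 332 and 242 (adjusted p = 0.0455, limma). Its relative Shank2 had 55.9 to 74.7 against 100.4, 106 and 86.7 (adjusted p = 0.0475, limma). The groups did not overlap in these 3 genes. Shank1 and Shank2 are named after their values were seen and stand in no list. With 1 library left out, Grm5 passed in 3 of 10 fits and Shank1 and Shank2 in 2 each. With scaling to total reads none of the 3 passed (adjusted p = 0.128, 0.201 and 0.215, limma). Of 29 receptor genes tested, 15 had a fold change above 0, while 9 had an unadjusted p under 0.05 in the lower direction and 1 in the higher, where 8.31% of all genes had such a p in the lower. With scaling to total reads these counts were 2 lower and 2 higher. Against all 9 controls Grm5 and Shank1 changed sign, with log2 fold changes of 0.08 and 0.08. The bipolar cell markers had a median of -0.27 over 18 genes tested, 14 of them below 0 and none called, and against all 9 controls a median of 0.24. Without control library 15 the median against 3 controls was -0.15.

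Sh3bgrl, a small thioredoxin-fold protein, passed whichever 1 of the 10 libraries was dropped, as did Gpnmb, but not in the fit of 3 groups (adjusted p = 0.0774, limma). It had 22.2 to 28.3 normalised counts with nicotinamide (median 23.5) and 50.4, 50.5 and 49.6 in the 3 controls, a log2 fold change of -1.01 ± 0.12 (SE) with an adjusted p of 0.000895 (limma). Of the other 6 controls, library 4 had 49.5 and the rest 17.6 to 30.8, so library 4 alone was at the level of the 3 controls. Vma21, an assembly factor of the lysosomal proton pump, had 50.4 to 72.4 (median 62.2) against 140.4, 129 and 99.6, with an adjusted p of 0.00403 (limma). The other 6 controls had 21.8 to 89.99 of Vma21, which takes in the nicotinamide range. Control libraries 1, 4, 5 and 6, with 21.8 to 45.8, lay below every nicotinamide library. Against all 9 controls the log2 fold change of Vma21 was 0.05 (adjusted p = 0.931, limma). Slc9a9, an endosomal sodium and proton exchanger, had 11.6 to 22.2 against 29.2, 34.6 and 29.7 (adjusted p = 0.0445, limma), and its log2 fold change was -0.95 against 3 controls and -0.83 against all 9. Control libraries 4 and 6 had 21.02 and 19.5 of Slc9a9, inside the nicotinamide range. Zfp449, a zinc-finger protein, and Hmgn3, a nucleosome-binding protein, had log2 fold changes of -1.04 and -0.73 (adjusted p = 0.0346 and 0.0445, limma). Against all 9 controls these were -0.26 and -0.20.

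Il22, an interleukin, had 1.04 to 2.71 normalised counts with nicotinamide against 7.42, 5.97 and 5.88 (adjusted p = 0.0422, limma). Its reads are uncertain, since a near-identical copy exists in some mouse strains. Among lower genes named after their values were seen, Igsf21, a synaptic adhesion protein, had 36.8 to 53.2 against 69.9, 71.1 and 74.8 (adjusted p = 0.0157, limma). Slc6a15, a neuronal transporter of amino acids, had 31.1 to 41.1 against 55.6, 60.8 and 56.1 (adjusted p = 0.0197, limma). Nr1d1, a clock repressor, had 479 to 629 against 718, 799 and 866 (adjusted p = 0.0487, limma). No nicotinamide library of these 4 genes reached the 3 controls. The other 6 controls had 0.905 to 5.26 of Il22, 14.9 to 44.3 of Igsf21 and 7.09 to 47.2 of Slc6a15, and overlapped with nicotinamide. Against all 9 controls the log2 fold change was -0.45 for Il22 and 0.18 for Igsf21. Of the 40 called genes, 4 were gene models without a name. The highest of these by passes with 1 library left out, 1700071K01Rik, had 2.55 to 5.2 against 14.7, 9.901 and 12.5 and 21.5, 9.18 and 9.52 in the water libraries.

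Rod genes had higher levels than in the 3 controls, but none passed the adjusted test in limma or edgeR. All 17 had a fold change above 0, with a median of 0.74, and 16 were higher at an unadjusted p under 0.05. Among all genes 51.2% were above 0 and 8.38% were higher at such a p. With scaling to total reads 8 passed, but that scaling moved the median of all genes to 0.23. There 204 of 13365 genes were called higher. In 12 of the 17 the groups did not overlap, where 2.94% of all genes were higher without overlap. Nicotinamide libraries 3 and 5 had the highest rod sums, 20571 and 19470. With 1 library left out the list's median lay between 0.62 and 0.81. Control library 9 had a higher rod sum than any nicotinamide library. Cone markers had a median of 0.07 against 3 controls over 12 genes tested, 0 of them with an unadjusted p under 0.05. That median was -0.11 without control library 15 and 0.37 without 13. The cone median against all 9 controls was 0.96, with 11 of 11 above 0 and 9 at an unadjusted p under 0.05, where 15% of all genes were higher at such a p.

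**Figure D5:**
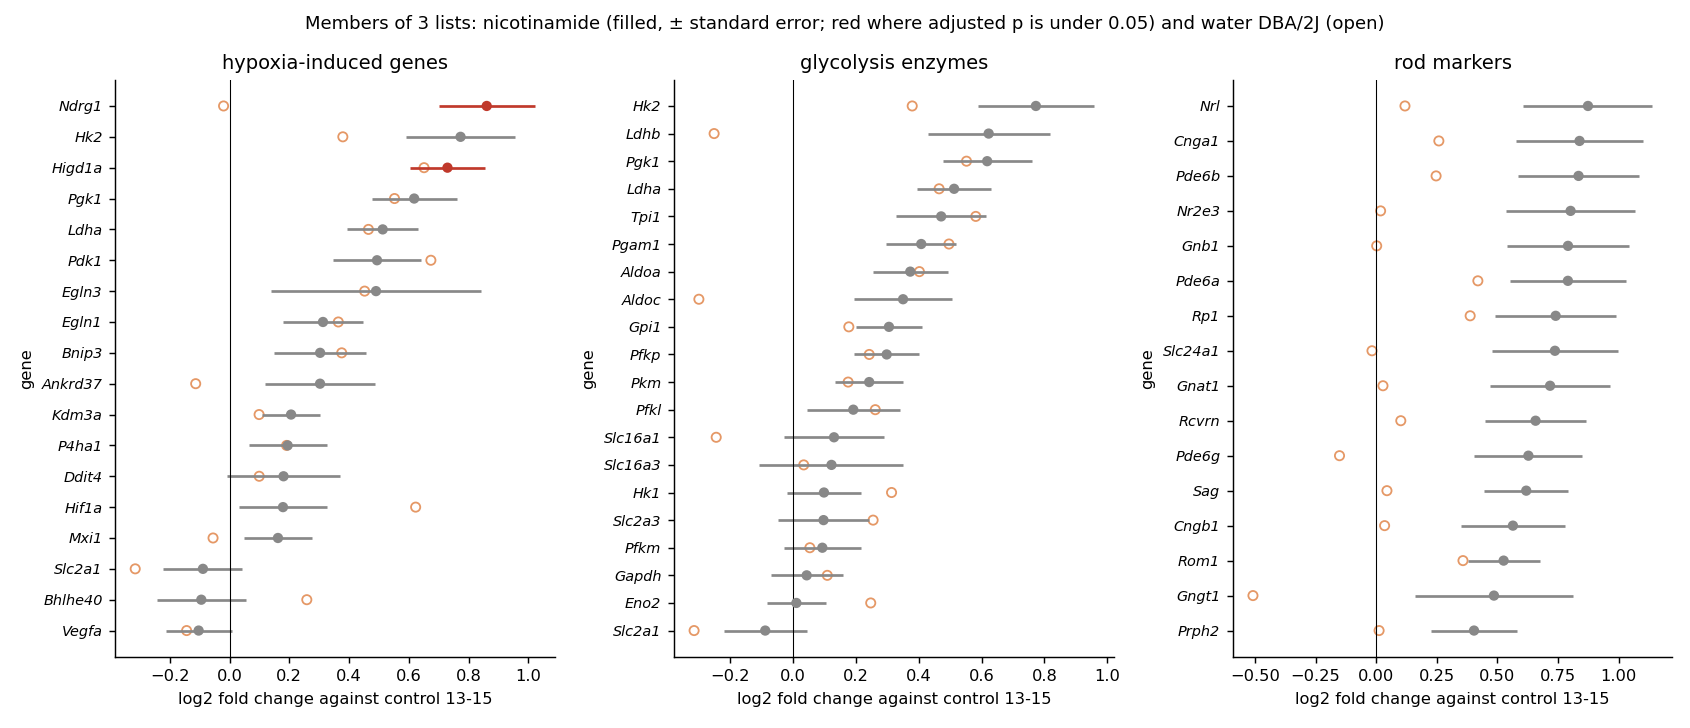
Log2 fold changes of hypoxia, glycolysis and rod genes against control libraries 13, 14 and 15, for nicotinamide with its standard error and for water DBA/2J in the fit of 3 groups. Ndrg1 and Higd1a are the genes with an adjusted p under 0.05, and the water values of the rod genes lie around 0, with a median of 0.04 over the 17 rod genes tested.

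No gene that makes or uses NAD passed in limma against 3 or 9 controls, or in edgeR against 3. Of 23 in the table, 20 were tested against the 3 controls, 12 had a fold change above 0 and the median was 0.07. At an unadjusted p under 0.05, 1 was higher and 1 lower against the 3 controls. With all 9 controls, edgeR called Nnt, the transhydrogenase that moves electrons from NADH to NADP, at a log2 fold change of -0.93 (adjusted p = 0.0477, edgeR), where limma gave -0.70 (adjusted p = 0.0939). In that comparison edgeR called 6.89% of all genes lower. Nampt had 87.5 to 111 normalised counts with nicotinamide (median 90.1) and 87.99, 87.5 and 96.9 in the controls, a log2 fold change of 0.08 with a 95% interval from -0.14 to 0.31. Nmnat2, an Nmnat enzyme of axons, had 6.93 to 18.2 (median 11.7) against 12.2, 5.29 and 6.65 (unadjusted p = 0.0498, adjusted p = 0.299, limma). Sarm1, the NAD-cleaving enzyme of axon degeneration, had 71.9 to 116 against 97.1, 112 and 118 (unadjusted p = 0.0422, adjusted p = 0.286, limma). The groups overlapped in these 3 genes. Parp1, which uses NAD in DNA repair, and the deacetylase Sirt1 had log2 fold changes of 0.06 and 0.02. Cd38, Bst1 and Kynu, of the same list, were not tested.

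Mitochondrial and protein synthesis genes lay close to the median of all genes, apart from the subunits encoded in mitochondrial DNA. The 75 nuclear-encoded respiratory chain subunits tested had a median of -0.02 against 3 controls, with 5 higher and 3 lower at an unadjusted p under 0.05. The 75 mitochondrial ribosomal proteins had a median of -0.04 and the 75 cytosolic ones of -0.08, with none called. Ribosomal protein values are uncertain because reads can be shared with processed copies. All 13 subunits encoded in mitochondrial DNA were below 0, with a median of -0.83, and 11 had an unadjusted p under 0.05, where 8.31% of all genes were lower at such a p. None passed the adjusted test in limma, and 2 did with scaling to total reads, where 13 of 13365 genes were called lower. For mt-Nd4, a subunit of complex I, nicotinamide libraries had 5599 to 8453 normalised counts and controls 13, 14 and 15 had 24004, 13275 and 6093. The order of these 3 controls is that of their pooled share of mitochondrial ribosomal RNA and Rn45s. Rn45s alone ran the other way, with 21350, 24362 and 43636 normalised counts in controls 13, 14 and 15. The part of ribosomal RNA in the result was not tested. Without control library 13 the list's median was -0.35, and without library 15 it was -1.32.

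Cholesterol and fatty acid synthesis genes had a median of 0.25 over 25 genes tested, with 19 above 0 and 8 higher at an unadjusted p under 0.05, beside 51.2% and 8.38% of all genes. Against all 9 controls their median was -0.06. Genes of reactive gliosis and the acute phase had a median of 0.43, with 15 of 16 above 0 and 0 at an unadjusted p under 0.05, and against 9 controls the median was -0.26. Complement genes had medians of 0.34 and -0.09, and interferon response and MHC class I genes -0.04 and -0.51, against 3 and 9 controls. Proteasome subunits had medians of 0.15 and 0.16, and heat shock proteins 0.11 and 0.15. Synaptic vesicle genes had medians of -0.02 and 0.52, and citric acid cycle enzymes 0.08 and 0.24. Lists for apoptosis and axon injury and for mitochondrial fusion, fission and biogenesis had medians of -0.09 and -0.01 against 3 controls. With 1 library left out the medians against 3 controls ran from 0.14 to 0.52 for reactive gliosis, lowest without nicotinamide library 2, and from 0.07 to 0.42 for complement, lowest without control library 15. They ran from -0.14 to 0.23 for interferon and MHC class I genes, from 0.08 to 0.26 for proteasome subunits and from -0.01 to 0.22 for heat shock proteins. No gene of the 10 lists in this paragraph passed in limma against 3 or 9 controls, or in edgeR against 3. Against 9 controls edgeR called 1.28% of all genes higher and 6.89% lower. Of these lists, edgeR called 2 higher and 2 lower of 21 citric acid cycle genes there. It called 1 higher and 2 lower of 15 gliosis genes and 2 lower of 13 heat shock genes. It also called 1 higher gene each for cholesterol and fatty acid synthesis and synaptic vesicles, and 1 lower each for complement and mitochondrial fusion, fission and biogenesis. With scaling to total reads, 1 citric acid cycle gene and 1 synaptic vesicle gene passed against 3 controls, both higher. That scaling called 204 of 13365 genes higher.

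Water DBA/2J libraries 26, 27 and 28 share strain with the nicotinamide group and stretch with controls 13, 14 and 15. In the fit of the 3 groups, which tested 13603 genes, 4 genes passed for nicotinamide against control (0.0294%): Gpnmb, 1700071K01Rik, Smc4 and Ppa1. For nicotinamide against water 56 passed (0.412%), 39 higher (0.287%) and 17 lower (0.125%). For water against control none passed in limma (0%) or edgeR, and 1513 genes had an unadjusted p under 0.05 in limma (11.1%). That contrast has 3 libraries on each side, where the other contrasts have 7 with nicotinamide. Gpnmb did not pass in it either, with a log2 fold change of -1.53 ± 0.25 (SE) and an adjusted p of 0.0801 (limma). The lack of calls therefore does not show that water and control libraries are alike. Single libraries moved these counts. For nicotinamide against control, leaving 1 out gave 1 call without control 14 or nicotinamide 3, 4 or 5, 32 without water 26, 21 without nicotinamide 8 and 109 without control 15. For nicotinamide against water it gave 0 without water 26 or nicotinamide 4, 5 or 7, and 512 without water 27. For water against control it gave 80 without water 27. The comparisons share libraries, so the values that follow stand side by side only.

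Of the 40 genes called against 3 controls, 5 also passed against water: Gpnmb, 1700071K01Rik, Ndrg1, Dcx and Adra2a. The water libraries had 3.103, 3.06 and 0.911 normalised counts of Dcx and 15.7, 17.8 and 24.4 of Ndrg1, near the level of controls 13, 14 and 15. For other genes the water libraries lay at the nicotinamide level. They had 115, 82.6 and 109.9 for Higd1a, 15.7, 11.7 and 15.6 for Klhl2 and 322, 248 and 280.3 for Tax1bp1. For Nab1 they had 48.1, 105 and 78.1, spread from the nicotinamide range almost to the controls.

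The lists divided in both ways too. For glycolysis enzymes the median log2 fold change was 0.24 for water against control and 0.05 for nicotinamide against water, and for hypoxia genes 0.31 and 0.06. For rod markers it was 0.04 for water against control and 0.59 for nicotinamide against water, for cholesterol and fatty acid synthesis -0.30 and 0.51, and for horizontal cell markers -0.18 and 1.07. For the mitochondrially encoded subunits it was -0.64 and -0.11. Differences between these medians were not tested.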

How the data were processed

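Reads were aligned to mm10 using TopHat2 2.0.7 with Bowtie2 2.0.6, and counted per gene by HTSeq, per the submitters' processing notes. The deposited table holds a signal: the authors' gene read counts divided by a size of each library, whose computation is not given in the sources used here. In each column every positive value was a whole number of reads (tolerance 0.05), which let the reads be recovered. Of 15171 genes, 22 with names turned into dates were left out. Column names match groups and not single samples. Stretches follow column order. No library was a copy of another.

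The test was limma 3.58.1 (R 4.3.3, trended and robust) on log2 of the value plus 1, in the groups compared. Genes needed a value of 1 or more in 7 libraries (9 controls) or 3 libraries (3 controls, and the fit of 3 groups). P-values were adjusted by Benjamini-Hochberg over all genes tested, with a threshold of 0.05. Errors are standard errors. Alternatives were edgeR 4.0.16 (quasi-likelihood) and DESeq2 1.42.0 on recovered reads, pseudocounts of 0.5 and 5, other filters and scalings, stretch terms and left-out libraries. The limma test was also run on simulated data, with a spread taken from the nicotinamide libraries and no differences between stretches. That run cannot show how the test does with controls that differ by stretch. The groups, gene lists and tests were chosen with earlier results of these data known.

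Named genes are, among called genes whose higher group averages at least 5 and that have a proper name, the 10 largest increases and decreases in each comparison, up to 4 called members of each list, and Gpnmb and Xist. Members of lists are also given as examples. Gene positions and upstream windows are from RefSeq (GRCm38.p6). Single genes of the rod and receptor lists enter the counts and medians but are not drawn or reported here by name.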

Additional observations from a re-analysis of the deposited data

Results flagged for a closer look

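Among 80 groups of values looked at, 1 library stood far from the rest of its group in 9. The rule flags about 1 in 20 by chance when groups are independent. These groups share libraries, so the 9 cannot be set against that rate. In the 9 controls, library 8 was highest for Stmn2 (7.41 normalised counts, next 1.56), Nefm (4.16, next 1.49), Dcx (9.09, next 2.88) and Adra2a (3.70, next 1.40). It is also the library with 7.93 of Xist. Control library 9 was highest for Smc4 (43.2, next 25.4) and Tbc1d30 (32.2, next 15.5), and library 6 for Zhx2 (64.6, next 49.7). Among the nicotinamide libraries, library 5 was highest for Cxadr (53.7, next 44.9) and library 7 for Myh10 (103, next 86.0).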

How the results depend on the processing

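Against all 9 controls the count of called genes, 0 in limma, became 1067 with edgeR, 2083 with DESeq2, 2 with scaling to total reads, 1 with the stretch as covariate, 1 with all 61 libraries and a stretch term, 4480 with only the 6 controls other than 13, 14 and 15, and 6 without the 4 controls of the first stretch, an alternative chosen after seeing the data. It ran from 0 to 1537 with 1 library left out. Against 3 controls the count, 40, became 23 with a filter on a mean of 5, 420 with DESeq2, 217 with scaling to total reads, 9 without trend and robust fitting and 4 when 3 groups shared one spread, and it ran from 3 to 324 with 1 library left out. In the fit of 3 groups, leaving out 1 library gave 1 to 109 for nicotinamide against control, 0 to 512 for nicotinamide against water and 0 to 80 for water against control, and edgeR gave 22 for nicotinamide against water. The 40 genes kept their direction under every alternative run with 3 controls. Fold changes in those fits rest on the same nicotinamide and control libraries that gave the calls. A kept direction there cannot show how far other libraries would give the same sign. No paired analysis was possible because the labels of the groups compared share no replicate numbers; the column numbers used here to name libraries, some of which occur in both groups, match no label. The cause of these differences was not tested, and 3 controls limit the precision of every fold change against them.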
